A study of Rattus norvegicus with 14 samples.

Results

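The genes described here encode chromatin remodellers and histone-modifying enzymes. They were chosen by symbol and by level: symbols that begin with Smarc, Ino80 or, before a digit, Kdm, Kmt, Chd, Hdac, Setd or Arid, together with Atrx and without Kdm5d, provided that 4 or more of the 14 libraries reached 1 FPKM. FPKM, fragments scaled by transcript length and by mapped total, is the unit of the deposited values. Of 84 symbols that matched, 76 passed this level, among 12744 of 22601 listed genes that passed it. Because the level chose the genes, the levels below are given as a description.

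RNA of about 100 mg of hippocampal tissue per sample, taken from wild type Wistar rats of 180 to 220 g, was sequenced after mRNA capture on beads. The control group received vehicle (n = 4). The PTZ group was made a seizure model with the convulsant PTZ (pentylenetetrazole), an antagonist of GABA-A receptors, and received vehicle (n = 5). The PTZ+Q808 group was the same model given Q808, of which no more than the code name is used here (n = 5). For dose, time of sampling, age and sex the labels have no entry. Nothing beyond the design text ties a library to its own animal, so the p-values measure the spread between these samples.

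Chromatin remodellers use ATP to slide, space or evict nucleosomes, and histone-modifying enzymes write or erase the acetyl and methyl marks that regulate access to DNA. SWI/SNF, ISWI, CHD and INO80 are the 4 main remodeller families. Histone deacetylases (HDACs) remove acetyl groups, lysine methyltransferases (KMT and SETD genes) add methyl groups, and lysine demethylases (KDM genes) take them off. Mutations in many of these genes cause neurodevelopmental disorders, some of them with epilepsy.

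Across genes, Spearman's rho between pairs of libraries was 0.967 to 0.989, given as a description. Their FPKM summed to 383126 to 419358, and their depth relative to control replicate 1, estimated from the steps between low values, ran from 0.858 in PTZ+Q808 replicate 2 to 1.04. Absolute depth is unknown. Transcripts of Y-linked genes were present in 2 control libraries, in 3 PTZ libraries and in 3 of the 5 with Q808. The hippocampal neuron markers Prox1, Zbtb20, Neurod6 and Wfs1 were all expressed, at summed FPKM of 172.9 to 266.5. Choroid plexus markers varied widely within every group, at summed FPKM of 56.6 to 7229 in control, 116.8 to 5409 in PTZ and 335.2 to 6931 in PTZ+Q808 libraries. The defining marker Otx2 was at 0 in at least 1 library. Control replicate 2 stood apart in striatal markers, at a summed FPKM of 322.2 against at most 46.7 in any PTZ or PTZ+Q808 library. PTZ+Q808 replicate 3 stood apart in pituitary markers (Prl, Gh1 and Pomc), at a summed FPKM of 675.5 against at most 11.1 in any other library.

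Both ISWI ATPases and Atrx were higher in PTZ+Q808 than in control hippocampus, and they were the 3 chromatin genes that passed the test in any comparison. Smarca5 encodes the widely expressed ISWI ATPase and Smarca1 its close relative, the ATPase of the NURF complex. Atrx is an X-linked SNF2-family helicase that works with the chaperone Daxx to place a histone variant at telomeres and other repeats. The 300 bases around the annotated gene start of these 3 genes, 250 before it and 50 after it, are shown 5′ to 3′ because these are the genes that passed. Capitals mark TGACG, the core of the cAMP response element, and GGGCGG, the GC box, on either strand. Sequences are from RefSeq, build GRCr8: Smarca5 at chr19:44176045-44176344 on the plus strand, Smarca1 at chrX:131944233-131944532 on the minus strand and Atrx at chrX:75062831-75063130 on the minus strand.
Smarca5: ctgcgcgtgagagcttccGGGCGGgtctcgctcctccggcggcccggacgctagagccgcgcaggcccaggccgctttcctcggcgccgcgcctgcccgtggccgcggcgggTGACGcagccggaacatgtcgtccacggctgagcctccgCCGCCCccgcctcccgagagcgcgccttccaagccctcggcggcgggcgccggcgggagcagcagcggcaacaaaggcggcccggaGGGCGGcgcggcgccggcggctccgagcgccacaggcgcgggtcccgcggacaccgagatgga
Smarca1: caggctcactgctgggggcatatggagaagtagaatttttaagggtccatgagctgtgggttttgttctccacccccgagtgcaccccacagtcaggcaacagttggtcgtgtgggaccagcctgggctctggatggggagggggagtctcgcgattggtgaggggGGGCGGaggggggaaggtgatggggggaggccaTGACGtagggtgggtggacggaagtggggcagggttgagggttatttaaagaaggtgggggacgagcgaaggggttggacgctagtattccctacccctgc
Atrx: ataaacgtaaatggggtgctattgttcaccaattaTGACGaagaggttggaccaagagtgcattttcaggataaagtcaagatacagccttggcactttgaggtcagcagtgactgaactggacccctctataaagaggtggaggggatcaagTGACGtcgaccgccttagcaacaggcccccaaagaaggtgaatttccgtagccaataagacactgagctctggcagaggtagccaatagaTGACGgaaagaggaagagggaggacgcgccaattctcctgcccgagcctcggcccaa

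The Smarca5 window held 1 TGACG and 3 GGGCGG matches at a G+C content of 79.0%. From base 128 of that window an ATG opens a reading frame with no stop codon to the window's end, so the later part, which holds 2 of the 3 GGGCGG matches, may be coding sequence, and the start in the table may lie downstream of the start of transcription. The Smarca1 window held 1 of each at 60.7% G+C. In the Atrx window, of 50.7% G+C, TGACG occurred 3 times and GGGCGG did not occur. An ATG at base 243 of the Atrx window also opens a stop-free frame to the window's end, of 19 codons against 57 in Smarca5. The last TGACG match lies there, and whether it is coding was not tested. Among 65 of the 76 genes with a window in the table, 29.2% held TGACG and 72.3% held GGGCGG. The shares were 31.6% and 63.1% in the windows of 10234 tested genes, and 22.0% and 34.9% in all 27457 windows. The full palindrome TGACGTCA, every match of which is also a match to TGACG, occurred in 0 of the 65 windows, in 3.11% of those of tested genes and in 1.91% of all. These matches are letters in a window and describe no binding.

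The 76 genes covered a wide range of levels. Hdac11, the only class IV deacetylase, had the highest mean FPKM over the 14 libraries, 91.1, followed by the NuRD ATPase Chd3 at 90.7 and the SWI/SNF core subunit Smarcc2 at 60.4. Setd3, an actin histidine methyltransferase despite its SET domain, averaged 43.9, and Hdac3, the catalytic subunit of the NCoR corepressor, 39.9. At the other end were Chd1l at 0.953, Setd4 at 0.990, Arid3a at 1.03, Hdac8 at 1.54 and Arid3b at 1.61. In all, 32 genes averaged above 10 FPKM, 42 from 1 to 10 and 2 below 1. The median of the means was 7.60, against 9.70 over all tested genes.

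**Figure D1:**
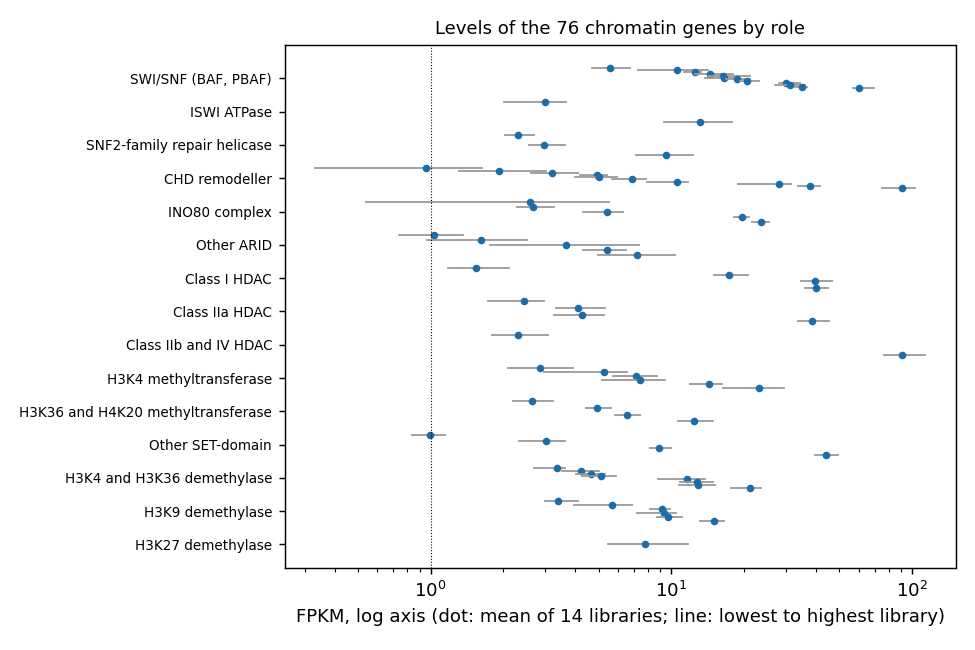
Mean FPKM of the 76 chromatin genes over 14 libraries (dot) with the lowest and highest library (line), on a log axis, by role; the dotted line is 1 FPKM. Hdac11 and Chd3 lie near 91, and the 3 genes lowest in mean, Chd1l, Setd4 and Arid3a, straddle 1.

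Most of the genes varied little between libraries. In 47 of 76 genes the highest library was less than 1.5 times the lowest, and the median SD across the 14 libraries was 0.129 on the log2(FPKM + 1) scale, against 0.147 over all tested genes. Smarca4, the SWI/SNF ATPase also called BRG, had the smallest ratio of highest to lowest, 1.12. A ratio over 2 was found in 8 genes. The largest was that of Ino80b, an INO80 complex subunit, which ran from 0.540 to 5.53 FPKM in no order of group. Control libraries held Ino80b at 5.53, 2.15, 0.846 and 2.83, PTZ libraries at 4.86, 0.613, 0.830, 2.90 and 5.52, and PTZ+Q808 libraries at 3.54, 1.20, 0.540, 3.97 and 0.936. High and low libraries occurred in each group, and the 3 groups overlapped over most of the range.

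At the edge of the level that defined the set, 71 genes reached 1 FPKM in all 14 libraries and 5 did not. Those 5 were Arid3a and Chd1l (7 libraries each), Setd4 (8), Ino80b (9) and Arid3b (13), and none passed the test in any comparison. Just inside, the median FPKM was 1.00 for Chd1l and Setd4 and 1.01 for Arid3a. Just outside, the highest library reached 0.843 for Hdac1l, 0.633 for the row named Kdm6a and 0.461 for Arid4b. The other 5 symbols below the level were Kdm4dl2, Kdm4d, Arid3c, Hdac6 and Smarce1l. How the authors' counting shared reads between Hdac1 and Hdac1l, or between Smarce1 and Smarce1l, is not stated in the labels.

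The comparison of PTZ with control asked what the seizure model did to these genes at the time of sampling. None of the 76 passed limma's test at a Benjamini-Hochberg adjusted p under 0.05, where 0.0314% of all tested genes did (4 genes). At an unadjusted p under 0.05 there were 5 of the 76, or 6.58%, against 8.11% of all tested genes. The median log2 change of the 76 was 0.00, against -0.01 over all tested genes, and 40 of 76 lay above 0 (52.6%, against 46.3%).

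The 5 smallest p-values in the PTZ comparison belonged to 3 remodelling ATPases with higher means and a pair of SWI/SNF subunits with lower means. Smarca5 had a log2 change of 0.36 ± 0.103 (SE, limma adjusted p = 0.415), Smarca1 of 0.28 ± 0.0832 (adjusted p = 0.431) and Atrx of 0.30 ± 0.0935 (adjusted p = 0.466). Smarcd3 and Smarcd1, alternative subunits at the same position of SWI/SNF, differed by -0.22 ± 0.0833 (adjusted p = 0.547) and -0.15 ± 0.0626 (adjusted p = 0.581). None of these 5 passed.

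In 3 chromatin genes the PTZ libraries all lay on one side of the control libraries, 3.95% of the 76 against 3.03% of all tested genes. They were Smarca5 and Smarca1, higher (1.44% of all tested genes were so), and Smarcd3, lower (1.59%). Smarcd3 was at 15.8, 21.3, 17.2 and 16.2 FPKM in control and 15.0, 14.3, 14.8, 15.6 and 14.6 in PTZ libraries. The gap between the lowest control and the highest PTZ library was small, and control replicate 2, the library rich in striatal markers, was the highest of all 14. In PTZ+Q808 libraries Smarcd3 was at 15.5, 17.0, 18.5, 15.3 and 18.6, which overlapped both other groups.

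Q808 was compared with vehicle among PTZ-treated rats, which is the comparison of the compound itself. Here 0 of the 76 genes passed, as did 0.0% of all tested genes by limma. At an unadjusted p under 0.05 there were 5 of 76 (6.58%, against 6.14%), of which 4 had lower means with Q808. No chromatin gene had groups that did not overlap (0 of 76, against 0.777% of all tested genes). The median log2 change was -0.05, against -0.00 over all tested genes, and 28 of 76 lay above 0 (36.8%, against 48.3%).

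Smarcd2, another alternative subunit at the Smarcd position of SWI/SNF, had the smallest p for Q808 within the seizure model. Its FPKM was 14.3, 11.98, 11.4, 8.45 and 12.8 in PTZ and 7.53, 9.17, 7.24, 10.6 and 9.51 in PTZ+Q808 libraries. PTZ replicate 4 lay among the PTZ+Q808 libraries, and the other 4 PTZ libraries lay above them. The log2 difference was -0.38 ± 0.121 (95% interval -0.64 to -0.12, limma adjusted p = 0.760). In control libraries Smarcd2 was at 11.4, 10.7, 10.5 and 12.3.

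The other 4 genes with a small p for Q808 did not pass either. Kmt2b, a trithorax-family H3K4 methyltransferase, differed by -0.28 ± 0.108 and Hdac5, a class IIa deacetylase that shuttles out of the nucleus in active neurons, by -0.13 ± 0.0557. Kdm3b, an H3K9 demethylase, differed by -0.13 ± 0.0609 and Smarcd3 by 0.18 ± 0.0786. Their limma adjusted p-values ran from 0.760 for Kmt2b to 0.797 for Kdm3b. For the 3 ATPases the intervals of the difference between PTZ+Q808 and PTZ reached from near 0 or below it to above it: Smarca5 0.21 (95% interval -0.00 to 0.41), Atrx 0.18 (-0.00 to 0.37) and Smarca1 0.10 (-0.07 to 0.26). These intervals include both no difference and a higher mean in PTZ+Q808 than in PTZ.

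Set against control, PTZ+Q808 libraries carried the 3 calls. Of the 76 genes, 3 passed and all 3 were higher (3.95%, against 2.87% of all tested genes called in either direction and 1.94% called higher). None was called lower, against 0.934%. With so few genes, the share of chromatin genes called lies close to that of all tested genes. This comparison shares its control libraries with the PTZ comparison and its PTZ+Q808 libraries with the Q808 comparison, so the 3 are not independent of each other.

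Smarca5 FPKM was 9.35, 11.1, 10.5 and 9.36 in control libraries. In PTZ libraries it was 11.9, 12.7, 11.8, 16.4 and 13.8. In PTZ+Q808 libraries it was 14.8, 15.3, 17.8, 12.7 and 16.7. Every PTZ and every PTZ+Q808 library lay above all 4 control libraries, while PTZ and PTZ+Q808 libraries overlapped. The group means were 10.1 ± 0.883 (SD, n = 4), 13.3 ± 1.88 (n = 5) and 15.5 ± 1.94 (n = 5), and the log2 difference between PTZ+Q808 and control was 0.57 ± 0.103 (SE, limma adjusted p = 0.0215).

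Smarca1 was expressed at a lower level than Smarca5 and followed the same order of group means. Its FPKM was 2.40, 2.48, 2.59 and 2.03 in control, 2.67, 3.54, 2.72, 3.50 and 3.06 in PTZ, and 3.36, 3.37, 3.65, 3.13 and 3.32 in PTZ+Q808 libraries. Here too no PTZ or PTZ+Q808 library lay in the control range, and PTZ libraries spanned from just above control to the PTZ+Q808 level. The means were 2.37 ± 0.243, 3.10 ± 0.413 and 3.37 ± 0.188, with a log2 difference between PTZ+Q808 and control of 0.37 ± 0.0832 (limma adjusted p = 0.0331).

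Atrx FPKM was 7.11, 8.46, 7.52 and 7.17 in control, 8.19, 10.3, 8.14, 10.7 and 10.7 in PTZ, and 11.1, 12.3, 10.8, 9.56 and 11.2 in PTZ+Q808 libraries. All PTZ+Q808 libraries were above all control libraries. PTZ replicates 1 and 3 lay within the control range and the other 3 PTZ libraries within the PTZ+Q808 range. The means were 7.57 ± 0.623, 9.59 ± 1.31 and 11.0 ± 1.00, and the log2 difference between PTZ+Q808 and control was 0.48 ± 0.0935 (limma adjusted p = 0.0226).

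**Figure D2:**
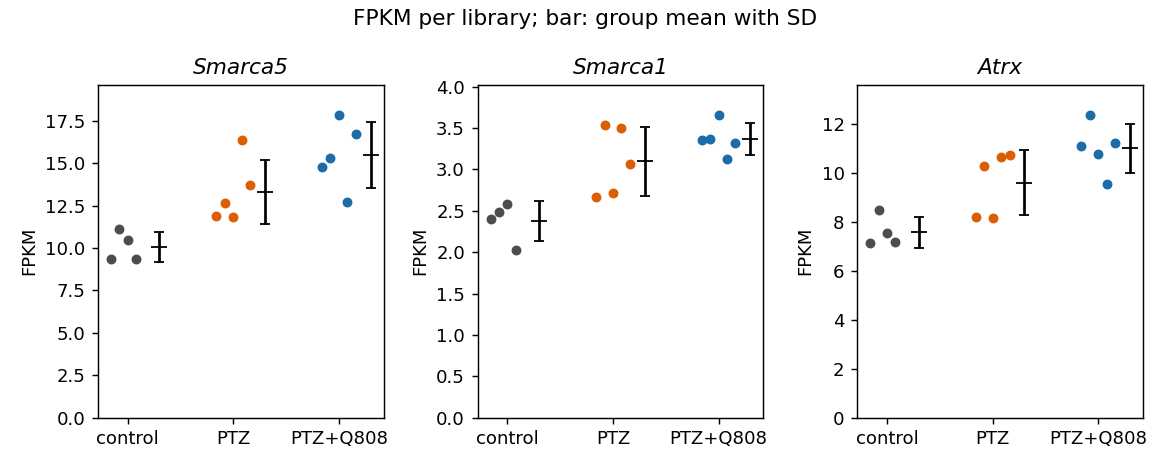
FPKM of Smarca5, Smarca1 and Atrx in each control, PTZ and PTZ+Q808 library (points in replicate order), with the group mean and SD beside them; axes start at 0. For all 3 genes every PTZ+Q808 library lies above every control library, and the PTZ group lies between with overlap.

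These 3 calls rest on few libraries. With control replicate 1, 3 or 4 or PTZ+Q808 replicate 1 or 5 left out, none of the 3 passed, and without PTZ+Q808 replicate 3 Smarca5 alone did, while the log2 differences kept their sign in every alternative (0.52 to 0.63 for Smarca5, 0.32 to 0.49 for Smarca1, 0.44 to 0.53 for Atrx).

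Markers of some cell types differed in mean between the same groups. Between PTZ+Q808 and control the median log2 difference was 0.14 for neuron, -0.10 for astrocyte, 0.10 for microglia and 0.04 for endothelium markers. It was 0.08 for hippocampal neuron, -0.18 for oligodendrocyte precursor and 0.11 for choroid plexus markers. Oligodendrocyte markers (Mbp, Mog, Mag, Cnp and Mobp) had a negative log2 difference between PTZ+Q808 and control in 5 of 5, with a median of -0.43 and none passing. Their summed FPKM was 2342 to 4565 in control, 2395 to 3337 in PTZ and 1586 to 3097 in PTZ+Q808 libraries. Meningeal markers (Dcn, Col1a1, Col1a2, Col3a1 and Lum) had a positive difference in 5 of 5, with a median of 0.72 and none passing, and their summed FPKM was 28.6 to 31.0, 23.9 to 95.1 and 24.5 to 80.6. Striatal markers had a median log2 difference of -0.69 with 0 of 4 above 0, and the 2 pituitary markers tested a median of 1.30 with 2 of 2 above 0. In control the striatal markers summed to 38.1 to 322.2 FPKM, with the highest sum in control replicate 2. Among pituitary markers the other 4 PTZ+Q808 libraries summed to 2.06 to 2.88 FPKM. Without PTZ+Q808 replicate 3 only Smarca5 passed, and without PTZ+Q808 replicate 1 or 5, which lay in that low range, none of the 3 did. The part of these cell types in the 3 calls was not tested, and in bulk tissue fewer cells of a type and less RNA per cell cannot be told apart. With the choroid plexus gene Ttr as a covariate the same 3 genes passed, and without the 3 libraries lowest in Ttr none of the 76 did, nor did any other gene. Those libraries were control replicate 3, PTZ replicate 2 and PTZ+Q808 replicate 1. Leaving out control replicate 3 alone or PTZ+Q808 replicate 1 alone also gave 0 chromatin calls, so this loss cannot be tied to Ttr.

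Beyond the calls, 7 of the 76 genes had PTZ+Q808 and control libraries that did not overlap (9.21%, against 8.91% of all tested genes). The 3 called genes were higher (3.95%, against 4.75%). Another 4, Hdac5, Kmt2b, Kdm8 and Ino80e, were lower (5.26%, against 4.17%). At an unadjusted p under 0.05 there were 16 of 76 (21.1%, against 20.7%). None of these 4 passed the test. Ino80e, a subunit of the INO80 complex that was picked out after its values were seen, differed by -0.11 on the log2 scale with an adjusted p of 0.235 in limma.

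Hdac5 FPKM was 40.2, 40.1, 45.1 and 41.7 in control, 39.7, 36.4, 41.2, 41.4 and 36.05 in PTZ, and 34.1, 33.6, 36.7, 38.2 and 34.6 in PTZ+Q808 libraries. The PTZ libraries reached into both other groups. The log2 difference between PTZ+Q808 and control was -0.23 ± 0.0591 (limma adjusted p = 0.0514). Hdac4, its class IIa relative, differed by -0.27 ± 0.0915 (adjusted p = 0.120).

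Kmt2b was at 5.51, 5.51, 6.16 and 6.57 in control, 6.24, 5.64, 5.74, 5.11 and 4.95 in PTZ, and 4.84, 2.96, 4.55, 5.33 and 4.47 in PTZ+Q808 libraries. The lowest value came from PTZ+Q808 replicate 2, the library of lowest relative depth, and the other 4 PTZ+Q808 libraries lay between 4.47 and 5.33. The log2 difference from control was -0.37 ± 0.115 (limma adjusted p = 0.0921). Kdm8, a JmjC-domain protein, was at 5.33, 5.68, 5.88 and 5.66 in control and at 4.49, 5.07, 4.55, 5.06 and 4.26 in PTZ+Q808 libraries, a log2 difference of -0.22 ± 0.0693 (adjusted p = 0.0878).

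By role, 2 of 2 ISWI ATPases and 1 of 3 genes listed as SNF2-family repair helicases were called higher, where 1.94% of all tested genes were. None of the 12 SWI/SNF, 10 CHD or 5 INO80 genes passed in PTZ+Q808 against control, among them the SNF2-type ATPases Smarca2, Smarca4 and Ino80. Of the SWI/SNF genes 2 of 12 had a log2 difference above 0, and the median was -0.06. Smarcd1 and Smarcd2, at -0.16 ± 0.0626 and -0.33 ± 0.128, had the smallest p among them (limma adjusted p = 0.160 and 0.166). The CHD genes had a median of -0.02, with Chd5, a neuronal NuRD ATPase, at 0.17 ± 0.112 (adjusted p = 0.420). Control replicate 2 was the lowest library of Chd5, at 18.9 FPKM. With single libraries left out its log2 difference ran from 0.03 to 0.25.

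Among the enzymes that act on histone tails none passed. The 4 class I deacetylases had a median log2 difference between PTZ+Q808 and control of 0.04, with Hdac2 at 0.12 ± 0.0685 (limma adjusted p = 0.358). The 4 class IIa deacetylases had a median of -0.16, and 3 of the 4 lay below 0. Hdac11 differed by -0.15 ± 0.0759 (adjusted p = 0.270), and control replicate 2 was its highest library at 113.3 FPKM.

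Of the 6 tested genes listed as H3K4 methyltransferases, 5 had a higher mean in PTZ than in control (median log2 difference 0.10). All 6 had a lower mean in PTZ+Q808 than in PTZ (median -0.16), and none passed in either comparison. Among all tested genes 46.3% lay above 0 in PTZ against control and 48.3% in PTZ+Q808 against PTZ. Kmt2a to Kmt2d summed to 26.5 to 28.2 FPKM in PTZ replicates 1 to 3. They summed to 20.2 and 20.7 in PTZ replicates 4 and 5, and to 21.0 to 26.1 in control. In PTZ+Q808 they summed to 23.2, 16.1, 21.3, 23.9 and 18.5, in replicate order, which overlapped both other groups. The 6 genes were read in the same libraries and are not independent of each other. The 8 H3K4 and H3K36 demethylases had a median of -0.13 between PTZ+Q808 and control and 2 of 8 above 0. The 6 H3K9 demethylases had a median of -0.07. Kdm7a, a demethylase of H3K9 and H3K27, was the only one of those 6 above 0, at 0.25 ± 0.0978 (limma adjusted p = 0.166). Over all 76 genes 25 lay above 0 (32.9%, against 44.7% of all tested genes), and the median was -0.06, against -0.02.

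**Figure D3:**
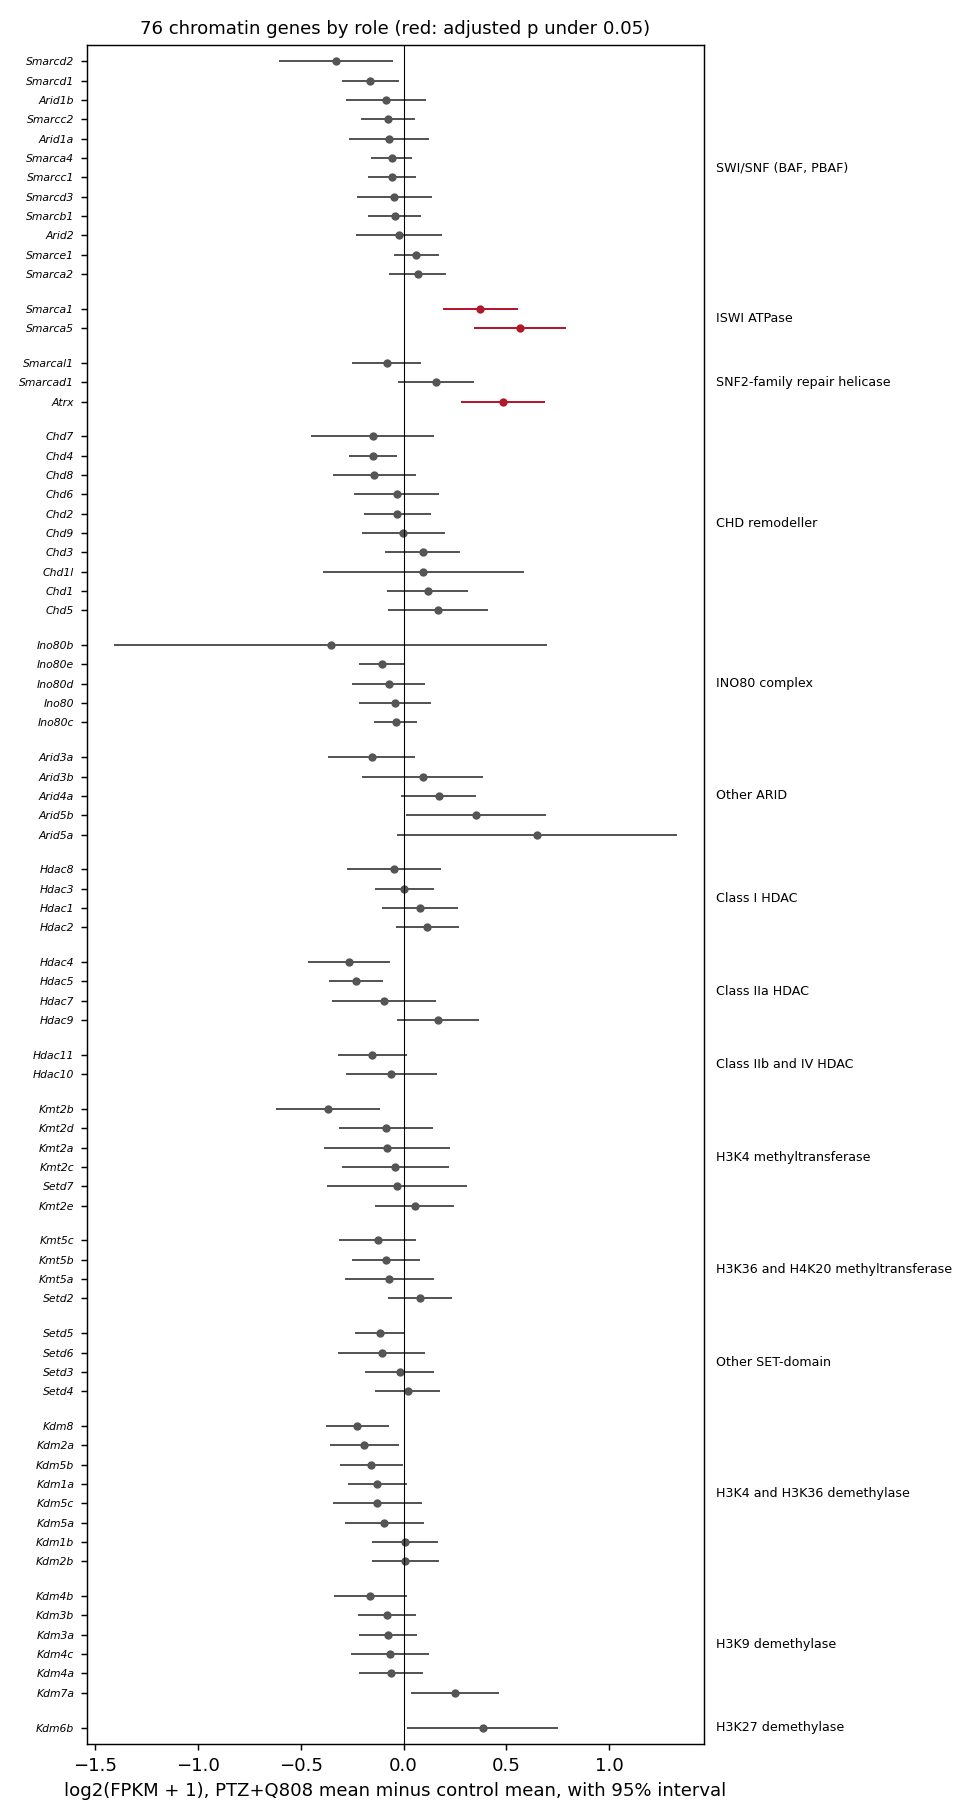
Log2 difference of PTZ+Q808 and control means on the log2(FPKM + 1) scale for the 76 genes, with 95% intervals, grouped by role; red marks an adjusted p under 0.05 in limma. Smarca5, Smarca1 and Atrx are the 3 red genes, and most other intervals include 0.

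In Arid5a and Kdm6b the high libraries were those high in Fos, an immediate early gene of neuronal activity. Arid5a encodes an RNA-binding ARID protein that stabilises inflammatory transcripts, and Kdm6b an H3K27 demethylase. They were the 2 of 76 genes whose 5 highest libraries were the 5 highest in Fos, with no overlap with the other 9 (2.63%, against 0.565% of all tested genes, or 72 genes). In Smarca5 and Arid3b 4 of those 5 libraries were among the gene's own 5 highest. The share of all tested genes with such an overlap was not computed, and none of those 5 libraries is a control. Those 5 libraries, PTZ replicates 3 and 4 and PTZ+Q808 replicates 1, 3 and 5, held Fos at 112.6 to 174.8 FPKM, against 11.2 to 62.8 in the other 9. This was seen after the values were known and is a description of 14 libraries without a test.

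Arid5a FPKM was 2.03, 2.88, 2.39 and 1.78 in control, 2.78, 3.09, 3.29, 7.37 and 2.66 in PTZ, and 6.55, 2.26, 6.56, 1.77 and 5.63 in PTZ+Q808 libraries. Values above 5 occurred in 1 PTZ and 3 PTZ+Q808 libraries, while PTZ+Q808 replicates 2 and 4 were within or just below the control range. The log2 difference between PTZ+Q808 and control was 0.65 ± 0.316 (limma adjusted p = 0.260), the largest of the 76 in size.

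Kdm6b FPKM was 5.45, 5.85, 6.17 and 7.34 in control, 7.88, 6.88, 8.45, 11.7 and 6.64 in PTZ, and 9.45, 6.39, 11.0, 6.31 and 9.61 in PTZ+Q808 libraries. Both seizure groups contained libraries within the control range and libraries above it. The log2 differences from control were 0.35 ± 0.169 in PTZ (limma adjusted p = 0.622) and 0.38 ± 0.169 in PTZ+Q808 (adjusted p = 0.215). PTZ+Q808 and PTZ differed by 0.03 (95% interval -0.31 to 0.37). Arid5b, a partner of the demethylase Phf2, spread from 4.99 to 10.4 FPKM among PTZ+Q808 libraries and differed from control by 0.35 ± 0.157 (adjusted p = 0.221).

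**Figure D4:**
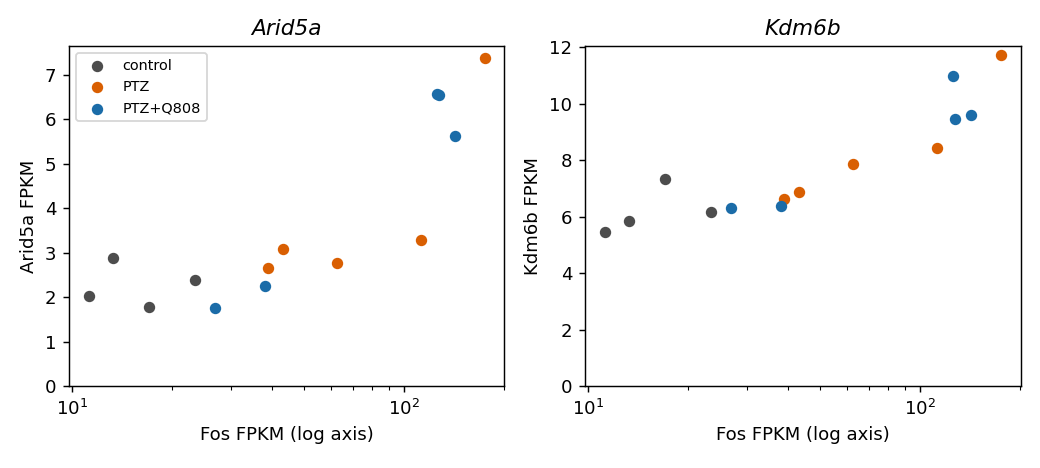
Arid5a (left) and Kdm6b (right) FPKM against Fos FPKM (log axis), one point per library, coloured by group. The 5 libraries with Fos above 112 hold the 5 highest values of both genes, and they come from the PTZ and PTZ+Q808 groups.

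Single libraries also moved many of the chromatin genes together. PTZ+Q808 replicate 2 was the lowest of the 14 libraries for 24 of the 76 genes (31.6%, against 13.6% of all tested genes). PTZ replicate 1 was the highest for 20 (26.3%, against 11.7%). The summed FPKM of Kmt2a, Kmt2b, Kmt2c and Kmt2d, the large trithorax-type methyltransferases, was highest in PTZ replicate 1, at 28.2, and lowest in PTZ+Q808 replicate 2, at 16.1, with the other 12 libraries from 18.5 to 26.5. Relative depth was lowest in PTZ+Q808 replicate 2, and its part in these values was not tested.

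**Figure D5:**
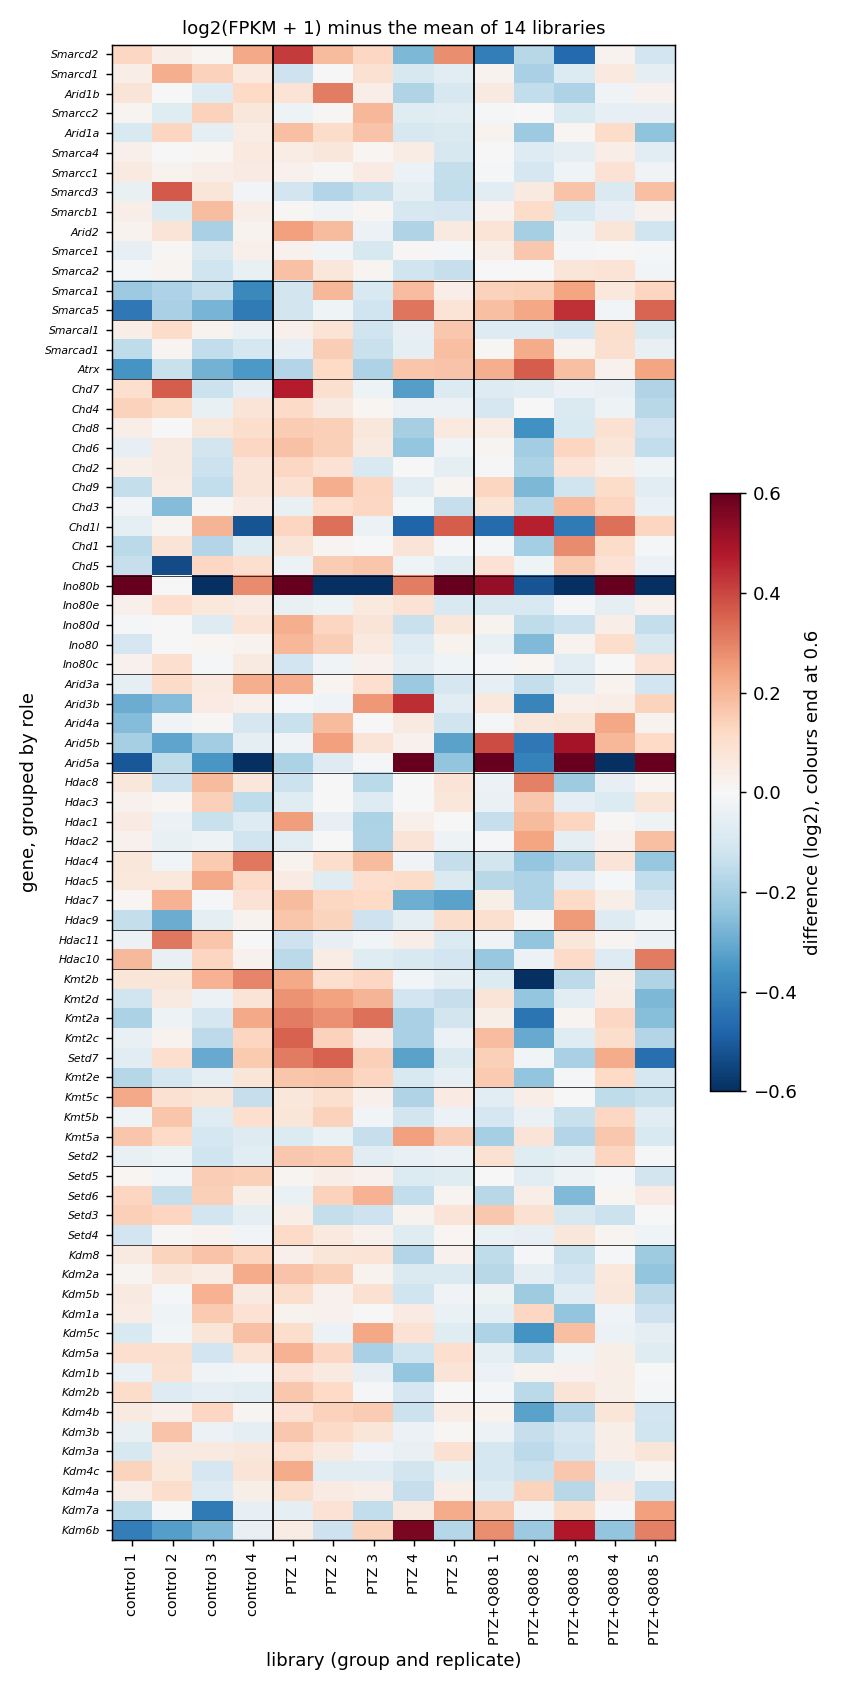
Each gene's log2(FPKM + 1) minus its mean over 14 libraries, for 76 genes by role (rows) and the libraries by group and replicate (columns), with colours ending at 0.6. Smarca1, Smarca5 and Atrx are blue in the 4 control columns, and PTZ+Q808 replicate 2 is blue for many genes of the CHD and H3K4 methyltransferase groups.

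The X-linked demethylase Kdm5c varied with the presence of Y-linked transcripts. It was at 8.83 to 12.6 FPKM (median 11.2) in the 8 libraries with them and 11.1 to 13.8 (median 12.8) in the 6 without, with overlap. Between PTZ+Q808 and control it differed by -0.13 ± 0.098 on the log2 scale (limma adjusted p = 0.497). Atrx, also X-linked, had medians of 9.92 and 9.40 in the same libraries.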

How the data were processed

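RNA of 14 rat hippocampus samples, captured on mRNA beads, was sequenced on a BGI T7 instrument. The authors deposited FPKM per gene and sample. The submitters' processing notes list HISAT2 and Bowtie2, StringTie and Cufflinks, HTSeq and DESeq, as well as Trimmomatic and SAMtools, with no role or version, and a genome build is not given in the sources used here. FPKM scales by transcript length and library total, so absolute depth is unknown, and intervals from counts are left out.

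The test took genes that reached 1 FPKM in 4 or more samples. Values were taken as log2(FPKM + 1), and 1 model of all 3 groups was fitted with limma 3.58.1 and a mean-dependent prior variance, in R 4.3.3 (with data.table, version 1.17.8). Tests were two-sided, p-values were Benjamini-Hochberg adjusted over all 12744 genes, and a gene was called at an adjusted p under 0.05. Fold changes are on this scale, where the pseudocount of 1 shrinks those of low genes. The script was tested on simulated data.

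The members, role lists and tests were chosen with earlier results of these data known. A marker gene is not reported here. Named genes were those called or, with fewer than 5 called, of the 5 smallest p per comparison; per role the highest in level and the largest change; the 5 highest and 5 lowest in level; those at the edge of the level; X-linked members; and called or smallest-p partner genes. Genes named outside this rule were picked with their values in view. Names and sequences were matched by gene identifier to RefSeq (20627 of 22601 genes). Alternatives covered the pseudocount, filters, scalings, the fit, covariates and each library left out. The same-numbered replicates of different groups deviated together in no steady way (correlations -0.28 to 0.143), so the numbers were not taken to pair samples. Figures were drawn with matplotlib 3.10.9.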

Additional observations from a re-analysis of the deposited data

Results flagged for a closer look

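In 6 of 108 checks of a group of 4 or 5 libraries over the 36 named chromatin genes, 1 library lay far from the rest of its group by Dixon's criterion; chance alone gives about 1 in 20 groups. PTZ replicate 4 accounted for 3 of them: Arid5a at 7.37 FPKM, against 2.66 to 3.29 in the other PTZ libraries, Kdm8 at 4.41, against 5.22 to 5.45, and Kmt5c, an H4K20 methyltransferase, at 2.20, against 2.69 to 2.87. That library also had the highest Fos of all 14, 174.8 FPKM.

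Smarcc2 was high in PTZ replicate 3, at 69.5 FPKM against 57.3 to 60.7. Kdm3b was high in control replicate 2, at 11.0 against 9.30 to 9.44. Arid3b was low in PTZ+Q808 replicate 2, at 0.969 against 1.64 to 1.83.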

How the results depend on the processing

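Results were recomputed under 28 alternatives. In all of them 0 chromatin genes passed in PTZ against control and in PTZ+Q808 against PTZ, and no log2 change of a gene named for its change turned its direction. The median log2 change of the 76 in PTZ against control, 0.00, ran from -0.02 to 0.04 and so crossed 0. Of all tested genes, 4 passed in PTZ against control. That count became 1 with no filter on low values, 0 with only the 2 groups compared, 7 with weights per library, 2 with a log2 Ttr covariate, 8 with a term for Y-linked transcripts, and 1 to 5 with single libraries left out. For PTZ+Q808 against PTZ it was 2 with no filter. For PTZ+Q808 against control, where 366 passed, it became 190 with no filter, 199 with only the 2 groups compared, 1100 with weights, 564 with the Y-linked term, 0 without the 3 libraries lowest in Ttr and 17 to 673 with single libraries left out.

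The 3 chromatin genes called in PTZ+Q808 against control became 7 with weights per library (Chd4, Hdac5, Kdm8 and Kmt2b were added), 0 without the 3 libraries lowest in Ttr, which leaves fewer samples, and 0 to 5 with single libraries left out. The highest of these, 5, was without PTZ+Q808 replicate 4, where Hdac5 and Kmt2b passed too. Smarca1 did not pass with no filter (adjusted p = 0.0537), and Hdac5 passed at a minimum FPKM of 5 and with the Y-linked term. Over all alternatives the limma adjusted p ran from 0.0054 to 0.145 for Smarca5, 0.00605 to 0.148 for Atrx and 0.0109 to 0.145 for Smarca1.

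With the replicate number as a replicate block, 0 genes passed in PTZ against control, 4 in PTZ+Q808 against control and 0 of the 76; the adjusted p was 0.0705 for Smarca5, 0.0640 for Atrx and 0.0984 for Smarca1. The numbers were not taken to pair the samples. FPKM gives no depth, so differences in low genes such as Chd1l and Setd4 were not detectable beyond the spread of the libraries.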

Other observations

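Partner genes of the same complexes, which the symbol rule did not cover, were read from the same limma fit. Of 137 tested partners 5 were called in PTZ+Q808 against control (3.65%, against 2.87% of all tested genes), and 0 in the other comparisons. Rbbp7, a histone-binding subunit shared by NuRD and Polycomb complexes, was higher, at 74.2 ± 7.43 FPKM (SD, n = 5) against 58.6 ± 2.15 in control (n = 4), a log2 difference of 0.33 ± 0.0819 (SE, Benjamini-Hochberg adjusted p = 0.0460). Actr6, an actin-related subunit of the SRCAP remodeller, was higher by 0.32 ± 0.0809 (adjusted p = 0.0497). Brpf1, the scaffold of a histone acetyltransferase complex, was lower, at 5.00 ± 0.523 against 7.30 ± 0.428 FPKM, a difference of -0.47 ± 0.0791 (adjusted p = 0.0157). The acetyltransferase Crebbp, known as CBP, differed by -0.34 ± 0.0816 (adjusted p = 0.0429) and the KMT2 partner Men1 by -0.27 ± 0.0621 (adjusted p = 0.0372).

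For all 5 the PTZ+Q808 and control libraries did not overlap, and the PTZ mean lay between the other means. None of the 7 tested partners of the ISWI ATPases passed. Hmgxb4, a NURF subunit, had the smallest p among them, at -0.26 ± 0.0842, and did not pass. Of 16 acetyltransferase genes and their scaffolds 2 were called lower, where 0.934% of all tested genes were, and 1 of 16 had a log2 difference above 0, against 44.7% of all tested genes. Leaving out single libraries or changing the fit ended the call in 16 of 28 alternatives for Actr6, 14 for Rbbp7, 13 for Men1, 13 of 27 for Crebbp and 5 of 28 for Brpf1, with no change of direction.

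Some rows carry symbols that differ from those RefSeq now gives to their gene identifiers. The row named Kdm6a belongs to Uty, a Y-linked gene, by its identifier. It was at 0.189 to 0.633 FPKM in the 8 libraries with Y-linked transcripts and at most 0.0156 in the other 6. The identifier of the X-linked demethylase Kdm6a belongs to a row with a placeholder symbol, at 2.84 to 3.70 FPKM in the 8 libraries and 4.07 to 4.80 in the 6, with no overlap. Hdac6 was likewise listed under a placeholder, at 1.24 to 4.56 FPKM, and Setd1b under another, at up to 6.41. These genes were therefore not among the 76.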
